A study of Mus musculus with 13 samples.

Results

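Oxidative phosphorylation is carried out by 5 protein complexes of the mitochondrial inner membrane, and the nuclear genes that encode their subunits were examined in mouse splenic regulatory T (Treg) cells. The members were all symbols of the deposited count table that name a subunit of NADH dehydrogenase (Nduf followed by a, b, c, s or v and a number), succinate dehydrogenase (Sdha to Sdhd), the cytochrome bc1 complex (Uqcr and Cyc1), cytochrome c (Cycs), cytochrome c oxidase (Cox4 to Cox8) or ATP synthase (Atp5). This gave 90 of the 26720 genes listed, after 3 rows whose symbols end in -ps, the mark of a pseudogene, had been left out. Complex I held 39 of them, complex II 4, complex III together with cytochrome c 10, complex IV 20 and complex V 17. Of the 90 members, 88 had enough counts to be tested.

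Complexes I, III and IV pass electrons from NADH to oxygen and pump protons across the inner membrane, complex II feeds in electrons from succinate, and complex V makes ATP from the returning protons. The subunits that hold the flavin, iron-sulfur or heme groups form the catalytic core, and smaller supernumerary subunits surround it. Mitochondrial DNA encodes further core subunits of complexes I, III, IV and V, which were not analysed here. Treg cells, the Foxp3-expressing T cells that restrain immune responses, are known to rely on mitochondrial respiration more than conventional effector T cells do.

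CD4+YFP+ spleen cells of mice about 4 to 5 weeks old were compared between 2 genotypes, with 13 libraries in all. The control group held 7 libraries (replicates 1 to 7) from Foxp3-YFPCre mice, in which the Cre recombinase and the yellow fluorescent reporter are driven by Foxp3. The deleted group held 6 libraries (replicates 1 to 5 and 7) from Foxp3-YFPCre/+ Stk3Δ/Δ Stk4Δ/Δ mice, which carry the same Cre allele, labelled heterozygous, and lack the Hippo pathway kinases MST2 (Stk3) and MST1 (Stk4) where it is active. No zygosity of the Cre allele is given for controls, and Cre dose and deletion cannot be told apart. Nor do they tie a library to a mouse, and p-values therefore cover only the spread among these libraries, which may be technical.

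Total counts were 2671660 to 4569655 per library in the deleted group and 3705511 to 8323919 in the control group. All 8 Treg markers examined had counts. They summed to 976 to 1932 counts per 1e6 counts (CPM, scaled between libraries by edgeR's TMM method) in the deleted libraries. In the control libraries they summed to 1380 to 5721 CPM. Of the 8, 6 were called lower, against 8.52% of all genes, and their median log2 fold change was -1.13. Summed B cell markers were at 117 to 146 CPM against 90.6 to 162 CPM, CD8 T or NK cell markers at 57.4 to 133 against 73.6 to 146, myeloid markers at 109 to 164 against 77.9 to 182, erythroid markers at 33.7 to 52.2 against 22.7 to 56.7 and dendritic cell markers at 128 to 181 against 89.5 to 150. Across these 5 lists, 1 B cell marker was called lower, and 1 B cell and 1 dendritic cell marker were called higher. No marker was at 0 in all libraries of a group, and the part of other cells in the results was not tested. Of the targeted genes, Stk3 was at 26.8 to 44.2 CPM in the deleted and 24.8 to 47.9 CPM in the control libraries, and Stk4 at 57.9 to 394 against 136 to 291 CPM. Neither was called by edgeR's quasi-likelihood test, with adjusted p = 0.981 and 0.576. The labels do not say which exons are deleted, and a count over a whole gene does not check an exon deletion. Chemosensory receptor genes (olfactory and vomeronasal), which serve sensory neurons and not T cells, took 0.761 to 1.89% of the counts in the deleted and 0.371 to 1.07% in the control libraries. This receptor share moved with genotype and with the results below. Counts over all subunit genes, each complex and the lists of related mitochondrial genes are therefore given with and without it. Counts by subunit class or by level, and values of single genes, come from the fit without it unless another fit is named. With the share as covariate, and in libraries of similar share, 0 of the 8 Treg markers were called.

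The subunit genes were lower in the deleted group across all 5 complexes. In edgeR's quasi-likelihood test over 24068 genes, 66 of the 88 tested members were called lower (adjusted p under 0.05), 0 were called higher and 22 were not called; at an unadjusted p under 0.05 the only higher member was Cox4i2, and DESeq2 also called 0 higher. The same test called 8.52% of all genes lower and 1.66% higher. The median log2 fold change was -1.04 over the members and 0.06 over all genes, and 85 of 88 members had a negative value. Falls among the 66 called members ran from -0.70 (Ndufv1) to -1.68 (Ndufb4c). The authors' deposited table gave 67 members lower and 0 higher, and 66 were lower in both. Of its 26720 genes, 1995 were lower. It rests on the same libraries and is no independent check. Without deleted replicate 7, 42 members were called lower. Calls over all genes fell as well, from 2050 of 24068 lower to 1080 of 24257. In bulk libraries, fewer cells of a type and less RNA per cell cannot be told apart.

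**Figure D1:**
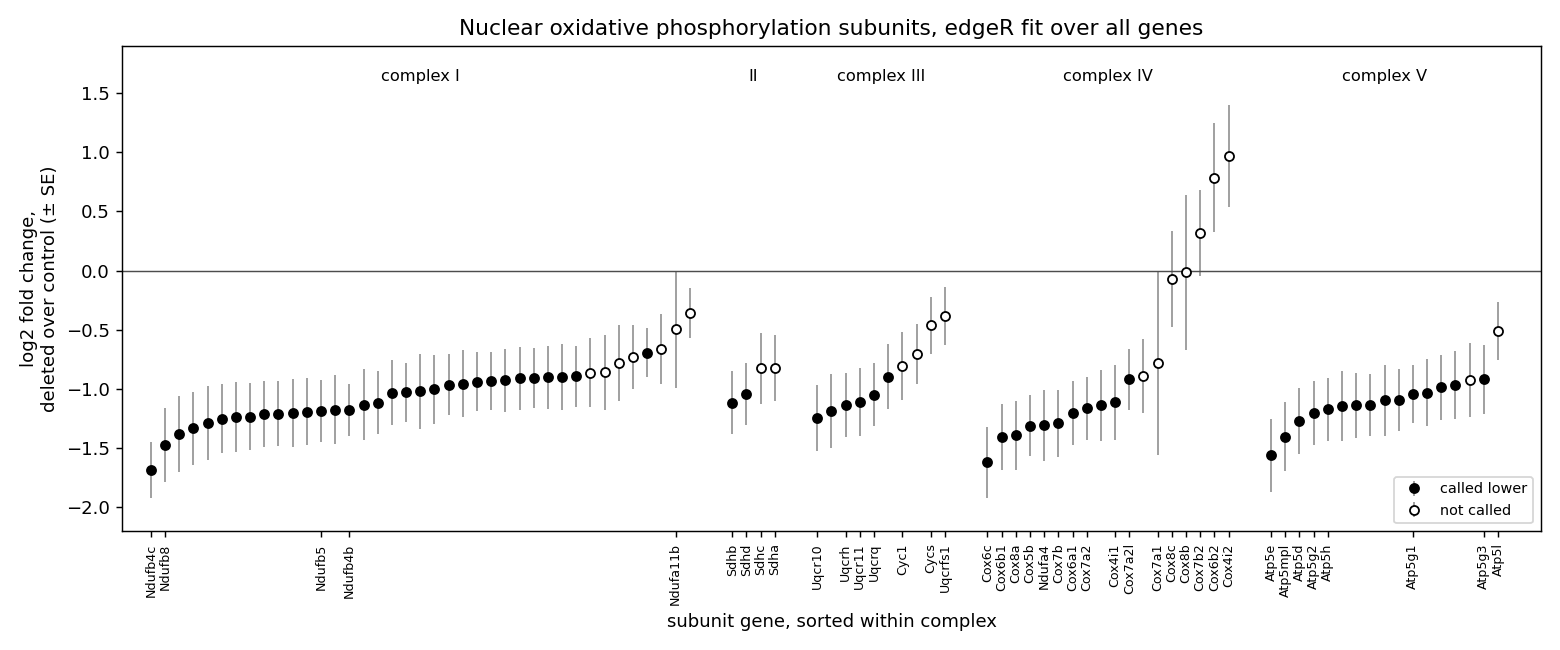
Log2 fold change of deleted over control (y axis) for each of the 88 tested subunit genes (x axis, sorted within complexes I to V; III includes cytochrome c), from edgeR. Points are estimates, bars are standard errors, filled points were called lower and open points were not called, and names are given for the members picked by the naming rule; the 3 values above 0 are isoforms of complex IV.

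How many members were called lower varied with the fit. Receptor share differed between the genotypes, so its part and that of genotype cannot be told apart here. Among genes of at least 50 mean CPM, fitted on their own, 49 of 69 members were called lower and 0 higher, with a median of -0.66. In that fit 15.6% of 5204 genes were lower and 9.38% were higher, and the scaling raised the median log2 fold change of the genes it shared with the full fit by 0.40. In the fit with receptor share as covariate, 1 member was called lower against 0.233% of all genes, and the members' median was -0.16. In the 5 deleted libraries (1 to 5) and 4 control libraries (1, 2, 3 and 7) with receptor shares between 0.7 and 1.4%, 1 member was again called lower against 0.418% of all genes. The members' median there was -0.50, and 83 of 88 had a negative value. The single call was Ndufb4c in both.

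The sum of the members shows the same split library by library. Subunit genes took between 0.549% (replicate 7) and 0.840% (replicate 4) of the total count in the deleted libraries, with a median of 0.667%. In the control libraries they took between 0.702% (replicate 2) and 1.57% (replicate 5), with a median of 1.03%. The groups overlapped only through control replicate 2, which lay below deleted replicates 2 and 4. Control replicates 4, 5 and 6, which had the 3 lowest receptor shares, had the 3 highest subunit shares.

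**Figure D2:**
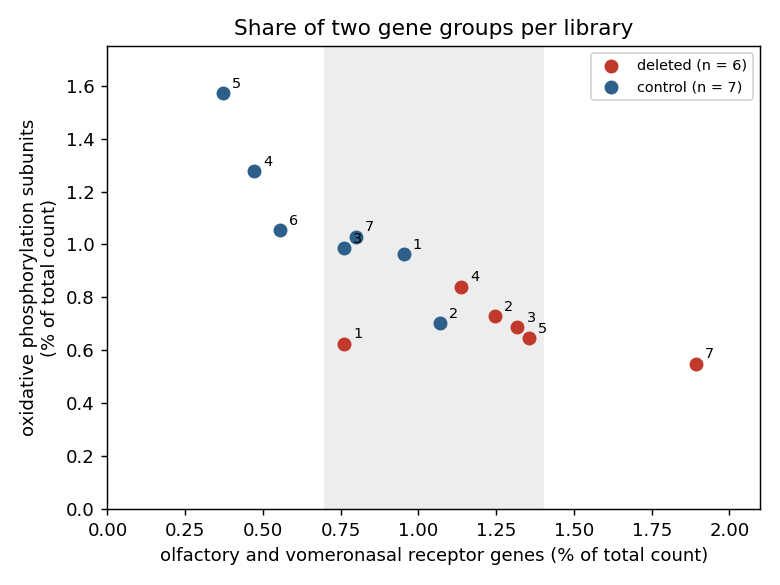
Share of the total count in the 90 subunit genes (y axis, %) against the share in olfactory and vomeronasal receptor genes (x axis, %), with 1 point per library labelled by replicate. The grey band marks receptor shares from 0.7 to 1.4%; inside it, control subunit shares ran from 0.702% upwards and deleted shares up to 0.840%.

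The members were also set beside genes of like level. Of the tested members, 61 had an average log2 CPM of 6 to 8, where the median of all 3385 genes was -0.39 and 24.1% were called lower. The members in that range had a median of -1.13, 53 were called lower and 59 lay below the median of the range. In the range of 4 to 6, all genes had a median of -0.01 with 9.28% lower, while the 17 members had a median of -0.96 with 11 lower. The 3 members at 8 or more (Cox4i1, Atp5a1 and Atp5b) had a median of -1.11, close to the -0.94 of all 309 genes that high. The 7 members below 4 had 0 calls; they were 6 complex IV isoforms and Ndufa11b.

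**Figure D3:**
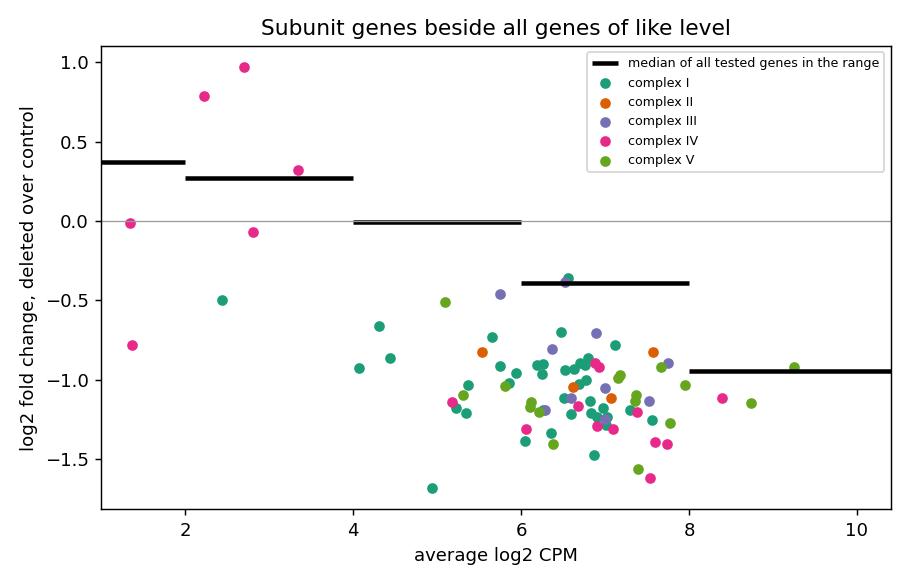
Log2 fold change of deleted over control (y axis) against average log2 CPM (x axis) for the 88 tested subunit genes, coloured by complex. Black lines give the median of all tested genes in each range of level; at 6 to 8 that median was -0.39 and the members' was -1.13.

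In complex I, the NADH dehydrogenase that begins the chain, 32 of 39 members were lower, with a median of -1.02. Of the 28 supernumerary subunits 26 were lower, with a median of -1.03, while of the 7 core subunits, which carry the flavin or the iron-sulfur clusters, 4 were lower with a median of -0.86. The complex had 17 members lower without deleted replicate 7, and 21 without deleted replicate 3 or control replicate 5. Over all genes these fits called 1080, 1148 and 1116 lower, in that order. Ndufb8, a supernumerary subunit of the membrane arm, lay at 31.4 to 92.8 CPM (median 59.3) in the deleted and 77.4 to 331 CPM (median 125) in the control libraries. Its log2 fold change was -1.47 (SE 0.31, adjusted p = 0.00583, edgeR), and 5 of 6 deleted libraries lay below every control library. Ndufb5, of the same arm, lay at 26.8 to 58.1 CPM (median 44.8) against 58.8 to 198 CPM (median 82.2), so the groups did not overlap. It fell by 1.19 (SE 0.26, adjusted p = 0.00732, edgeR). Only 4 of 88 members had every deleted library below every control library, against 1.44% of all genes; the others were Ndufb4c, Cox6b1 and Atp5e.

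The core subunits of complex I called lower included Ndufs8 (-1.21), Ndufv2 (-1.24) and Ndufv1 (-0.70). Ndufs1, the largest subunit, which holds iron-sulfur clusters, had the log2 fold change nearest to 0 in complex I. It lay at 73.1 to 90.1 CPM (median 79.9) in the deleted and 66.4 to 156 CPM (median 100.2) in the control libraries. All deleted values fell inside the control range, and its log2 fold change was -0.36 (SE 0.21, adjusted p = 0.282, edgeR). Ndufs3 had -0.73 (adjusted p = 0.0875) and Ndufs7 -0.86 (adjusted p = 0.0569), both not called by edgeR. Ndufa11b, a copy of the subunit gene Ndufa11 at 0.952 to 9.65 CPM, had -0.50 (SE 0.49, adjusted p = 0.554, edgeR).

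The smallest adjusted p among the members was that of a gene copy. Ndufb4 (chromosome 16, 37647602 to 37654368, GRCm38.p6) encodes a supernumerary subunit, and the table lists 2 further genes of that name, Ndufb4b (chromosome 19, 25033108 to 25033578) and Ndufb4c (chromosome 15, 73809449 to 73809933). Ndufb4c lay at 7.23 to 19.6 CPM (median 14.5) in the deleted and 28.8 to 54.6 CPM (median 43.2) in the control libraries, with no overlap. Its log2 fold change was -1.68 (SE 0.24, adjusted p = 0.000144, edgeR). It was -1.52 (adjusted p = 0.023) in the fit with receptor share as covariate and -1.55 (adjusted p = 0.00741) in the libraries of similar receptor share. Ndufb4b lay at 15.7 to 30.7 CPM (median 21.9) against 29.8 to 66.1 CPM (median 49.997), and fell by 1.18 (SE 0.22, adjusted p = 0.0027, edgeR). Ndufb4 itself lay at 8.56 to 14.8 CPM (median 10.5) against 11.98 to 34.1 CPM (median 19.1) and fell by 0.93 (SE 0.27, adjusted p = 0.0288, edgeR). How reads shared by such copies were assigned is not given in the sources used here, so the split between the 3 genes is uncertain.

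Both copies lie inside other genes. Ndufb4c sits within the span of Mroh5 (chromosome 15, 73786936 to 73839671), which had medians of 14.6 CPM in the deleted and 4.65 CPM in the control libraries. Mroh5 moved the other way from Ndufb4c and rose by 1.35 on the log2 scale (SE 0.38, adjusted p = 0.0259, edgeR). Ndufb4b sits within Dock8, which had -0.44 (SE 0.26, not called by edgeR). Stk3 also lies on chromosome 15, 38653567 bases from Ndufb4c and 776094 bases from Cox6c, the member with the largest fall in complex IV; whether linkage to the targeted allele bears on either was not tested. In all, the spans of 30 of 90 members, introns included and on either strand, overlap another annotated gene. The strand setting is not stated, and how many reads lie in shared bases was not examined.

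Complex II, the succinate dehydrogenase, has 4 subunits, all nuclear. Sdhb, its iron-sulfur subunit, lay at 70.4 to 102 CPM (median 79.7) in the deleted and 80.9 to 303 CPM (median 168) in the control libraries and fell by 1.12 (SE 0.27, adjusted p = 0.0111, edgeR). Sdhd, a membrane anchor, fell by 1.04 (SE 0.26, adjusted p = 0.0142, edgeR). The flavoprotein Sdha had -0.82 (SE 0.28, adjusted p = 0.0606) and the anchor Sdhc -0.83 (SE 0.30, adjusted p = 0.080), both outside the threshold in edgeR. The complex thus had 2 of 4 members lower, with a median of -0.93. Without control replicate 2, all 4 were lower, and 3245 of 23841 genes were lower in that fit.

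Complex III with cytochrome c had 6 of 10 members lower, with a median of -0.97, and the 6 were all supernumerary. Uqcr10 fell by 1.25 (SE 0.28, adjusted p = 0.00732), Uqcrh by 1.14 (SE 0.27, adjusted p = 0.0114), Uqcr11 by 1.11 (SE 0.29, adjusted p = 0.0166) and Uqcrq by 1.05 (SE 0.27, adjusted p = 0.0158) in edgeR. Uqcr10 was at 47.7 to 105 CPM (median 69.2) in the deleted and 88.1 to 319 CPM (median 160) in the control libraries, and 4 of 6 deleted libraries lay below every control library.

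The parts of complex III that carry electrons were not called. Uqcrfs1, the Rieske iron-sulfur protein, lay at 64.9 to 91.6 CPM (median 79.4) in the deleted and 56.4 to 186 CPM (median 80.4) in the control libraries, with all deleted values inside the control range. Its log2 fold change was -0.39 (SE 0.25, adjusted p = 0.336, edgeR). Cytochrome c itself, the mobile carrier encoded by Cycs, lay at 34.3 to 56.8 CPM (median 42.0) against 32.8 to 94.0 CPM (median 60.8). It had -0.46 (SE 0.24, adjusted p = 0.226, edgeR), and Cyc1, the heme-bearing cytochrome c1, had -0.81 (SE 0.29, adjusted p = 0.0749). Taking the 10 core genes of complexes I and III with cytochrome c as a group, 4 were lower and the median was -0.77, whereas 42 of the 46 supernumerary subunits of complexes I, III and IV were lower with a median of -1.13. In the libraries of similar receptor share these medians were -0.26 and -0.56. There, and with the share as covariate, 0 genes of either group were called. The core group leaves out complex II, in which 2 of 4 core subunits were lower with a median of -0.93. This grouping was not among the planned results, and the difference between the groups was not tested.

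**Figure D4:**
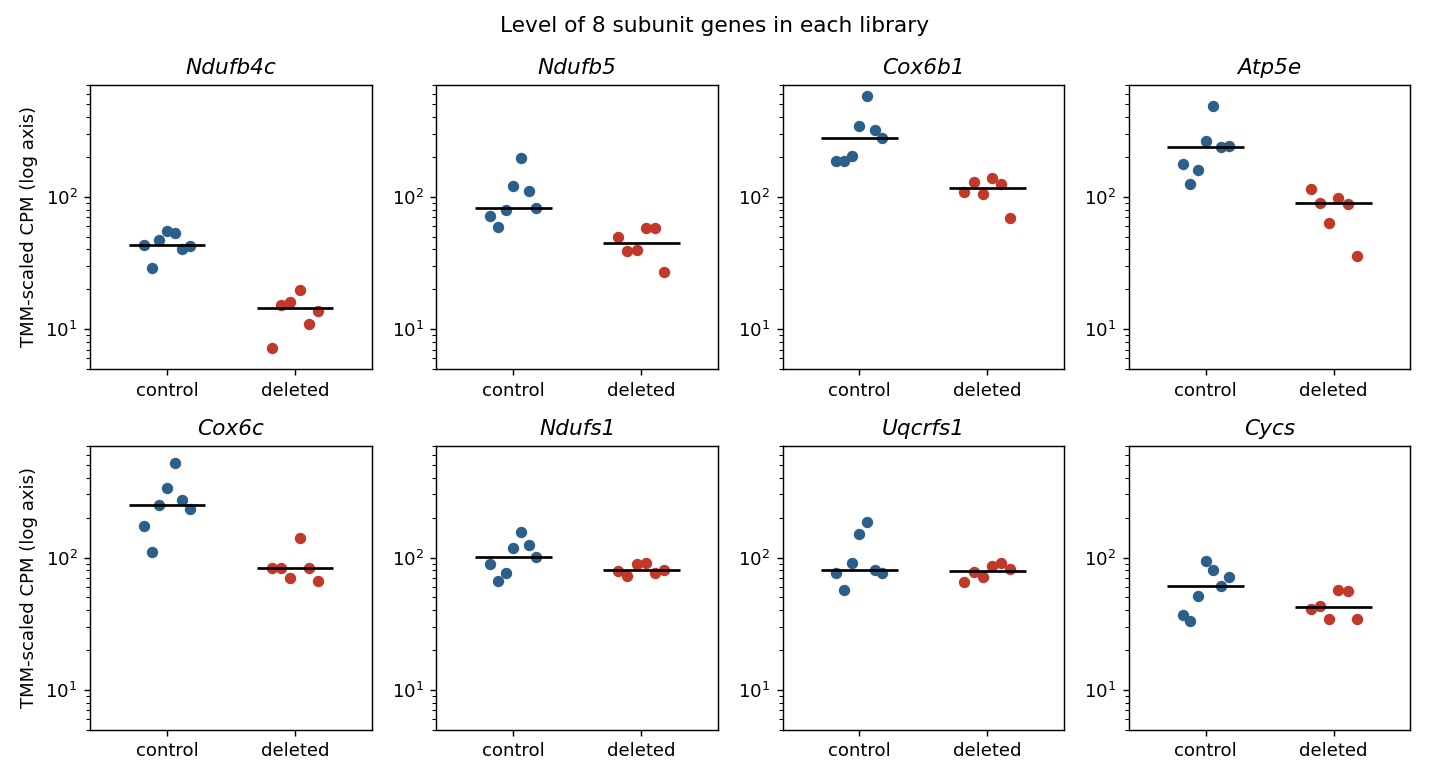
TMM-scaled CPM (log axis) of 8 subunit genes in each of the 7 control and 6 deleted libraries; points are libraries and lines are medians. For Ndufb4c, Ndufb5, Cox6b1 and Atp5e all deleted points lie below all control points, while for Ndufs1, Uqcrfs1 and Cycs they overlap.

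In complex IV, the cytochrome c oxidase that reduces oxygen, 11 of 18 tested members were lower and the median was -1.13. The ubiquitous supernumerary subunits had 10 of 11 lower with a median of -1.29. Cox6c lay at 65.9 to 139 CPM (median 83.0) in the deleted and 110 to 514 CPM (median 247) in the control libraries. It fell by 1.62 (SE 0.30, adjusted p = 0.00233, edgeR), and only deleted replicate 4 reached the control range. Cox6b1, which joins the 2 monomers of the dimeric enzyme, lay at 68.5 to 139 CPM (median 117) against 185 to 580 CPM (median 278), with no overlap. It fell by 1.41 (SE 0.28, adjusted p = 0.00412, edgeR).

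Cox8a (-1.39), Cox5b (-1.31), Cox7b (-1.29), Cox6a1 (-1.20), Cox7a2 (-1.17) and Cox4i1 (-1.11) were also called lower in edgeR. So were Ndufa4 (-1.31), a subunit first assigned to complex I and placed here in complex IV, and Cox7a2l (-0.92), which joins complexes III and IV into supercomplexes. Of the isoforms known from muscle, lung, testis or other tissues, 0 of 6 tested were called. Cox4i2, the isoform best known from lung, had 0.97 (SE 0.43, adjusted p = 0.150, edgeR), but lay at only 2.90 to 19.7 CPM in the deleted and 2.95 to 5.80 CPM in the control libraries. Cox6b2 had 0.79, Cox7b2 0.32, Cox8b -0.02, Cox8c -0.07 and Cox7a1 -0.78. Cox6a2 and Ndufa4l2, with at most 7 and 26 counts in any library, were not tested. For scale, the receptor genes had a median over genes of 5.13 CPM in the deleted and 3.16 CPM in the control libraries, so the isoforms lay at a level that receptor genes also reached.

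In complex V, the ATP synthase, 15 of 17 members were lower, with a median of -1.10. Atp5e, the epsilon subunit of the F1 part, lay at 36.0 to 115 CPM (median 89.0) in the deleted and 125 to 487 CPM (median 237) in the control libraries, with no overlap. It fell by 1.56 (SE 0.31, adjusted p = 0.00355, edgeR). Atp5mpl, a small membrane subunit, fell by 1.41 (SE 0.29, adjusted p = 0.00504, edgeR). Atp5d, the delta subunit of the F1 part, fell by 1.27 (SE 0.28, adjusted p = 0.00717, edgeR). Atp5h, of the peripheral stalk, fell by 1.17 (SE 0.26, adjusted p = 0.0077, edgeR).

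The 3 genes Atp5g1, Atp5g2 and Atp5g3 encode the same mature c subunit of the proton-driven ring. All 3 were lower, by 1.04, 1.20 and 0.92 on the log2 scale. Atp5b, the catalytic beta subunit, had -0.92 (SE 0.31, adjusted p = 0.060) and Atp5l, the g subunit of the membrane part, had -0.51 (SE 0.25, adjusted p = 0.190); neither was called by edgeR. Atpif1, which encodes an inhibitor of the enzyme and is no subunit, fell by 1.57 (SE 0.29, adjusted p = 0.00234, edgeR), from 37.1 to 165 CPM (median 90.6) in the control to 17.97 to 46.9 CPM (median 29.9) in the deleted libraries.

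The balance between complexes was then examined within the members' own counts, which does not depend on the scaling between libraries. Complex IV made up 16.5 to 18.3% of all subunit counts (median 17.7%) in the deleted and 18.6 to 20.2% (median 19.2%) in the control libraries, and the groups did not overlap. They also did not overlap when Ndufa4 was counted in complex I or when isoforms and gene copies were left out. Complex III with cytochrome c made up 11.9 to 14.5% (median 13.02%) in the deleted and 11.3 to 12.3% (median 11.8%) in the control libraries, with overlap. Complex I made up 31.6 to 37.9% against 32.3 to 35.1%, complex II 3.69 to 6.10% against 4.26 to 5.13% and complex V 28.2 to 30.7% against 28.7 to 31.3%, all with overlap. These shares of 5 summed groups are descriptions with no test.

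**Figure D5:**
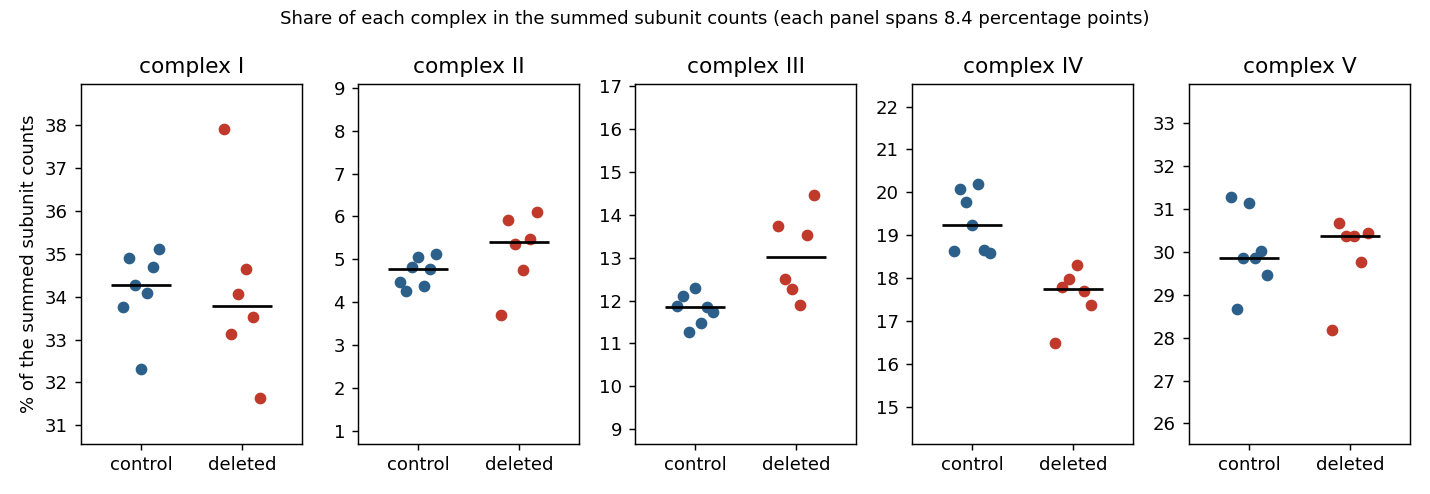
Share of each complex in the summed counts of the 90 subunit genes (y axis, %) in each control and deleted library; points are libraries, lines are medians and all panels span the same number of percentage points, not starting at 0. Complex IV is the panel in which the groups do not overlap, with medians of 19.2% in control and 17.7% in deleted libraries.

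Single members were compared in the same way. Relative to the summed subunit counts, Ndufs1 was at 1.15 to 1.93% in the deleted and 0.666 to 1.07% in the control libraries. Uqcrfs1 was at 0.943 to 1.94% against 0.634 to 0.921%. These 2 of 88 members were higher in every deleted than in every control library, and 0 were lower throughout. Of all tested genes, 6.48% were higher and 0.241% were lower throughout on this measure, so this count does not set the members apart.

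Genes that serve the complexes without being subunits had smaller median values. Of 54 assembly factors 13 were lower and 0 higher, against 8.52% and 1.66% of all genes, with a median of -0.53. Without deleted replicate 1, 20 were lower, and without control replicate 2, 21 were. Over all genes these fits called 2518 and 3245 lower. Of the 54, 41 lay below 50 mean CPM, and these lists were not set beside genes of like level. Cox19, a copper-handling factor for complex IV, fell by 1.27 (SE 0.25, adjusted p = 0.00346, edgeR) and was also lower in the libraries of similar receptor share (adjusted p = 0.0336). With the share as covariate it had -1.06 (adjusted p = 0.163, edgeR), and 0 of 54 assembly factors were called. Uqcc3, an assembly factor of complex III, fell by 1.32 (adjusted p = 0.00357) and Pet100, of complex IV, by 1.17 (adjusted p = 0.00504) in edgeR. Lrpprc, which stabilises mitochondrial messenger RNAs, had 0.28 (adjusted p = 0.357) over all genes but was called higher among genes of at least 50 mean CPM (0.67, adjusted p = 0.0241, edgeR).

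Of 28 regulators of mitochondrial biogenesis 1 was lower and 0 higher, against 8.52% and 1.66% of all genes. Their median was -0.18. Leaving out deleted replicate 3, 5 or 7 or control replicate 5 gave 0 calls, with 1034 to 1148 of all genes lower. Leaving out control replicate 1 gave 2 and control replicate 2 gave 3. Over all genes those fits called 2512 and 3245 lower. The call was Myc, a growth-promoting transcription factor, which fell by 0.99 (SE 0.27, adjusted p = 0.0212, edgeR). Hcfc1 had -0.57 (adjusted p = 0.0747) and Pprc1 -0.51 (adjusted p = 0.0987), while Nrf1, a classical activator of respiratory genes, had -0.05 (SE 0.19, adjusted p = 0.909, edgeR). Gabpb2, part of the activator NRF2, had 0.01 (adjusted p = 0.977) but was called higher among genes of at least 50 mean CPM (0.41, adjusted p = 0.0345, edgeR).

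Of 20 other nuclear genes of the inner membrane 9 were lower and 0 higher, against 8.52% and 1.66% of all genes. Their median was -0.62. In the fit with receptor share as covariate 0 of 20 were lower, and in the libraries of similar receptor share 1 was. Slc25a4, an ADP/ATP carrier that exports the ATP made by complex V, lay at 31.1 to 44.7 CPM (median 33.8) in the deleted and 54.7 to 223 CPM (median 121) in the control libraries. It fell by 1.77 (SE 0.27, adjusted p = 0.000371, edgeR) and was also lower in the libraries of similar receptor share (-1.20, adjusted p = 0.0149). With the share as covariate it had -0.83 (adjusted p = 0.222, edgeR) and was not called. Ucp2, an uncoupling protein family carrier, fell by 1.38 (adjusted p = 0.00528) and Aifm1, which helps import complex I subunits, by 0.96 (adjusted p = 0.00732) in edgeR.

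Sequence upstream of the subunit genes was searched for 6 motifs linked to respiratory genes, on both strands, in the 250 bases before each start (RefSeq, GRCm38.p6). A window was found for 70 of 90 members and for 17159 tested genes. The core of the NRF1 site (GCGCATGC) was in 9 of 70 members (12.9%), against 3.50% of tested genes with a window. Among the 57 members called lower that had a window it was in 7 (12.3%), and among the 13 not called or not tested it was in 2 (15.4%). The CCAAT box (CCAAT) was in 44.3% of members and 39.6% of tested genes, the GC box (GGGCGG) in 35.7% and 47.4%, and the ERR site (AAGGTCA) in 7.14% and 4.22%. The ETS site (CCGGAAGT) was in 4.29% of members and 4.48% of tested genes and the YY1 site (AAGATGGC) in 1.43% and 1.85%. None of the 6 motifs contains another, and a match in these letters is a description, not a binding site.

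The 250 bases before the start of 5 members are shown: Cox6b1, Atp5e and Ndufb5 had no overlap between groups, and Cycs and Uqcrfs1, which carry electrons, were not called. Capitals mark motif matches on either strand: CCAAT boxes in Cox6b1 (chr7:30626115-30626364, minus strand), CCAAT and GC boxes in Atp5e (chr2:174464102-174464351, minus strand), and the NRF1 core and a CCAAT box in Cycs (chr6:50566570-50566819, minus strand). Ndufb5 (chr3:32736813-32737062, plus strand) and Uqcrfs1 (chr13:30545317-30545566, minus strand) have no match to any of the 6 motifs in these bases.
Cox6b1: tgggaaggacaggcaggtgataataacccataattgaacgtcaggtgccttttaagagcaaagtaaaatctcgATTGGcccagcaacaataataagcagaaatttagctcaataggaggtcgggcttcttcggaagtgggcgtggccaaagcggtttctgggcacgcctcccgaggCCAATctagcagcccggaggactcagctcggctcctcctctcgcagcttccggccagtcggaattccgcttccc
Atp5e: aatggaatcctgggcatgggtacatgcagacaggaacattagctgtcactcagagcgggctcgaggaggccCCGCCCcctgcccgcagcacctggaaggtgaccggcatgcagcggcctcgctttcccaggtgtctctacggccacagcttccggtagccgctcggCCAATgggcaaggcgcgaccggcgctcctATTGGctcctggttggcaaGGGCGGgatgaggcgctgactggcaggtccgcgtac
Ndufb5: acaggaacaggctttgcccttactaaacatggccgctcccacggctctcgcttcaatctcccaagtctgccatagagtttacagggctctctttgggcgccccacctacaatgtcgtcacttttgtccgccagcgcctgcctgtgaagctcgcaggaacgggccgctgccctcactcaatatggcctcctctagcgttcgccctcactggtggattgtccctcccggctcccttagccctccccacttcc
Cycs: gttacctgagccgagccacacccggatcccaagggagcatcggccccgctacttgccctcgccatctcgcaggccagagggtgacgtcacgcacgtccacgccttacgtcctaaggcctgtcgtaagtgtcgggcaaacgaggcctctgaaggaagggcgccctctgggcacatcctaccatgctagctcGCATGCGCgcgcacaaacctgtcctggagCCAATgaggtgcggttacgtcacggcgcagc
Uqcrfs1: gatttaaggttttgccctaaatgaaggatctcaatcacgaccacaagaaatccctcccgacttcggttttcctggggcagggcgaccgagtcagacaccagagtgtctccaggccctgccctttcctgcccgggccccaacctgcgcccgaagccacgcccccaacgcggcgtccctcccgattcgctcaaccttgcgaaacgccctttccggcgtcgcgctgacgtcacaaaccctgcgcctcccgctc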

How the data were processed

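Per the labels' protocols, RNA of sorted CD4+YFP+ spleen cells was copied into complementary DNA by SMART-Seq v4 (Ultra Low Input). The deposited values are raw counts of reads for each gene. The submitters' processing notes list GRCm38 and mm10 as builds, and the tools DESeq2 1.26.0, edgeR 3.28 and featureCounts 2.0.1. Not given in the sources used here are the aligner, the annotation, the strand setting and the treatment of reads with several matches. A table of comparisons deposited by the authors gives log2 fold changes and false discovery rates (adjusted p-values) as means over several tools, per the file headers. Genes without a symbol (1097, with 3.39% of counts) stayed in the fit.

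Genes kept by filterByExpr were TMM-scaled (trimmed mean of M values), and edgeR 4.0.16 was used for testing (R 4.3.3; quasi-likelihood F test, genotype only, all 13 libraries), adjusted by Benjamini-Hochberg over all genes with 0.05 as threshold. CPM are TMM-scaled counts per 1e6. The test was checked on simulated data. Alternatives were DESeq2 1.42.0 and its size factors, upper quartile scaling, 2 filters, genes of at least 50 mean CPM, the receptor share as covariate, libraries of similar receptor share, the replicate block and each library left out. Complex shares with Ndufa4 in complex I, and without isoforms and copies, were added after seeing the data.

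Members, lists and alternatives were chosen with earlier results of these data known. Genes named were the 4 members of smallest and 1 of largest p in complexes I, III, IV and V, all of complex II, Cyc1, Cycs, Uqcrfs1, the c-ring genes, complex IV isoforms, Atpif1, and 3 genes of smallest p and any called higher per list. Other genes, such as the core of complex I, Ndufb4, Mroh5, Dock8, Atp5b and Nrf1, were named after their values were seen; some results are not reported here.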

Additional observations from a re-analysis of the deposited data

Results flagged for a closer look

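Over 94 groups of library values examined, 9 had a highest or lowest library far from the rest by Dixon's criterion; chance gives about 1 in 20 groups, or 4.7 here. Deleted replicate 1 stood apart in Atp5h (75.0 CPM, others 30.5 to 40.5), in Uqcr11 (108 CPM, others 41.3 to 54.9) and in the share of complex V in the subunit counts (28.2%, others 29.8 to 30.7%). Deleted replicate 4 stood apart in Cox6a1 (151 CPM, others 76.8 to 97.2) and Cox6c (139 CPM, others 65.9 to 83.5), and deleted replicate 7 in Cox4i2 (19.7 CPM, others 2.90 to 9.16). Control replicate 5, which has the largest total count and the lowest receptor share, stood apart in Atp5e (487 CPM, others 125 to 265), Atp5g1 (140 CPM, others 41.9 to 83.8) and Cox6b1 (580 CPM, others 185 to 343).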

How the results depend on the processing

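The count of lower members was 66 and stayed between 55 and 70 with DESeq2 size factors, upper quartile scaling, either filter and the DESeq2 test. With the receptor share as covariate it was 1 overall (complex I 1, complexes II, III, IV and V 0), with 56 of all genes lower and 54 higher, and 0 assembly factors and 0 regulators lower. In the libraries of similar receptor share it was 1 overall (complex I 1, the other complexes 0), with 101 genes lower and 38 higher, 1 assembly factor and 0 regulators; this fit has fewer libraries. Among genes of at least 50 mean CPM, 20 complex I members, 4 assembly factors and 813 genes were lower, with fewer genes tested. Upper quartile scaling gave 1208 genes lower and 761 higher and moved the median by 0.18, and the DESeq2 test gave 728 higher and 2 regulators lower. The cause of the other differences was not tested.

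With the replicate number as a block, 25 members were lower (complex I 11, II 0, III 1, V 4, the rest in complex IV). Over all genes 734 were lower and 118 higher, and 0 regulators were lower. Cox8b was at 0.44. Deviations of same-numbered libraries correlated at -0.217 to 0.136, and no deleted library correlated best with the control library of its number. Whether same-numbered libraries were handled together cannot be told from these correlations.

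Leaving out 1 library at a time gave 42 (without deleted replicate 7) to 75 (without control replicate 2) lower members; by complex I to V these ranges were 17 to 35, 2 to 4, 4 to 8, 8 to 12 and 10 to 17. Without deleted replicate 3 or control replicate 5, 21 complex I members were lower. For all genes, 1034 to 3245 were lower and 167 to 860 higher; assembly factors ranged from 10 to 21 and regulators from 0 to 3.

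Some signs changed. With the covariate, log2 fold changes were 0.045 for Atp5g3, 0.12 for Atp5l, -0.18 for Cox7b2, 0.046 for Cyc1, 0.18 for Cycs, 0.36 for Ndufa11b, 0.11 for Ndufs1, 0.23 for Ndufs3, 0.093 for Ndufs7, 0.13 for Sdhc and 0.30 for Uqcrfs1. In the libraries of similar receptor share they were -0.11 for Cox7b2, 0.17 for Cox8b, 0.0012 for Ndufa11b and 0.052 for Uqcrfs1. Among genes of at least 50 mean CPM, Ndufs1 was at 0.070 and Uqcrfs1 at 0.083; with upper quartile scaling, Cox8b was at 0.14 and Cox8c at 0.092. Leaving out 1 library gave -0.19 to 0.16 for Cox8b and -0.34 to 0.12 for Cox8c. The depth of 2671660 to 8323919 counts limits the isoforms of complex IV, which had few reads.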
